A study of Schizosaccharomyces pombe with 2 samples.

Results

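The introns of 8 fission yeast genes were followed: those of the actin-binding proteins Adf1 (cofilin, SPAC20G4.06c), Cdc3 (profilin, SPAC4A8.15c), Cdc8 (tropomyosin, SPAC27F1.02c) and Fim1 (fimbrin, SPBC1778.06c), of the myosin light chains Cdc4 (SPAP8A3.08) and Rlc1 (SPAC926.03), of calmodulin (Cam1, SPAC3A12.14) and of the calmodulin-like light chain Cam2 (SPAC29A4.05). They were taken by gene identifier from a deposited table of 5374 introns in 2548 genes. The table lists 12 introns of 6 of the genes, and it lists none for cam2 and rlc1, which carry no intron in the ASM294v3 annotation of NCBI. Each of the 12 introns had at least 20 reads in both libraries and entered the comparison.

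The libraries were polyA RNA from a pat1_as2 prp2-1 strain of Schizosaccharomyces pombe, driven by a chemical trigger through synchronous meiosis and labelled 8h. One library came from cells held for 1 h at 34 °C, where the protein of the temperature-sensitive prp2-1 allele is inactivated, and the other from cells of the same culture left at 25 °C, where it works. Both libraries carry the same pat1 and prp2 alleles, so heat as such and loss of Prp2 cannot be told apart. There is 1 library for each temperature and hence no replicate check: intervals cover counting error alone, and every test sets these libraries against each other, not the temperatures in general. Reads that are PCR copies of one molecule would make the intervals too narrow.

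Prp2 is the large subunit of U2AF, which binds the pyrimidine tract near the 3' end of an intron early in spliceosome assembly. The proteins described here build and turn over actin structures. Profilin carries actin monomers to formins, cofilin severs old filaments, fimbrin crosslinks filaments in endocytic patches, and tropomyosin coats the filaments of cables and of the contractile ring. The light chains Cdc4 and Rlc1 bind the necks of the ring's type II myosins, and Cam1 and Cam2 serve the type I myosin Myo1. In meiosis actin is also needed where forespore membranes close.

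The library at 34 °C held 493659 intron reads, 39.9% of them unspliced, and the library at 25 °C held 636989, 6.56% of them unspliced. Of 13 genes of meiosis used to check the labels, 12 are in the table and all 12 had reads in both libraries, summing to 43830 at 34 °C and 32319 at 25 °C. The counts ran from 1 read at 34 °C and 2 at 25 °C in mek1 to 33707 and 16118 in spo6, which gave the largest part of both sums. Unscaled reads were fewer at 34 °C in spo4, spn7, spn5, mes1, mfr1, rec8 and mek1. They were more in spo6, rem1, crs1 and meu13, and equal in dmc1. In mek1, meu13, dmc1 and rec8 no count passed 12 reads.

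Intron sequences are shown for the 4 introns of cdc4, which changed most as a gene, for the pairs of fim1, which differed by test, and of cdc3, which had the widest gap without passing, and for adf1 intron 2, which begins with the same 6 bases as cdc4 intron 2. Sequences are the RefSeq reference of ASM294v3, 5' to 3' on the transcribed strand. Capitals mark the first 6 bases (the 5' splice site), a match to a branch site motif where one lies in the last 45 bases, and the closing AG. Intron numbers are the table's and were taken to run from left to right along the chromosome, so in the minus-strand genes adf1, cdc3 and fim1 intron 2 comes first in the transcript.
cdc4 intron 1: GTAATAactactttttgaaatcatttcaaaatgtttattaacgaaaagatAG
cdc4 intron 2: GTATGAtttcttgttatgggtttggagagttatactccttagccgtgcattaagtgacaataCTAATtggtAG
cdc4 intron 3: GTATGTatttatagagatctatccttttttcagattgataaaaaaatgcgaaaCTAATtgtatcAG
cdc4 intron 4: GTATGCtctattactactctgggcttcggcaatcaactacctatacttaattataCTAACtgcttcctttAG
cdc3 intron 1: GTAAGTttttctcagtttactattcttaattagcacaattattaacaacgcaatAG
cdc3 intron 2: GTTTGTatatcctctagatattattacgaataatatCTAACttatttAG
fim1 intron 1: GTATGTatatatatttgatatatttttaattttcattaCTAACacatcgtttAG
fim1 intron 2: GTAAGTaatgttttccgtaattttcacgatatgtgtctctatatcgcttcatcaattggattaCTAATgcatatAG
adf1 intron 2: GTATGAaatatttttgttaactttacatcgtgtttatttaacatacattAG

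The direction of numbering is not stated in the table and was read from the data. Over 825 introns of 301 minus-strand genes, the rank correlation within genes between 5' splice site score and change was -0.224 when numbers ran from left to right and 0.0417 when they ran from right to left. The points share genes and libraries, and this is a description. If the members ran the other way, the sequences and places of the introns of adf1, cdc3 and fim1 would swap within each gene, while the counts would stay with their numbers. The introns of cdc4 and cam1 lie on the plus strand, where left to right is also the order in the transcript, and cdc8 has a single intron.

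The question was how splicing of these transcripts stood in cells without working Prp2. The unspliced share is the percentage of unspliced reads among all reads counted for an intron. It was called higher at 34 °C in 10 of the 12 introns and lower in 0. Over all 2508 introns with enough reads it was called higher in 82.6% and lower in 0%, so the members' count was near the background. The median share at 25 °C was 5.6% over all 2508 introns, which leaves little room for a fall to be called. Calls rest on Fisher's exact test, two-sided, adjusted by Benjamini-Hochberg over all 2508 introns, at a threshold of 0.05. The 2 introns without a call were cdc3 intron 1 and fim1 intron 1. The median change over the 12 introns was 22.1 percentage points, against 32.3 over all measured introns, and 3 of the 12 lay above the median of all. The range within the group ran from 1.26 points in cdc3 intron 1 to 70.5 points in cdc4 intron 2.

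**Figure D1:**
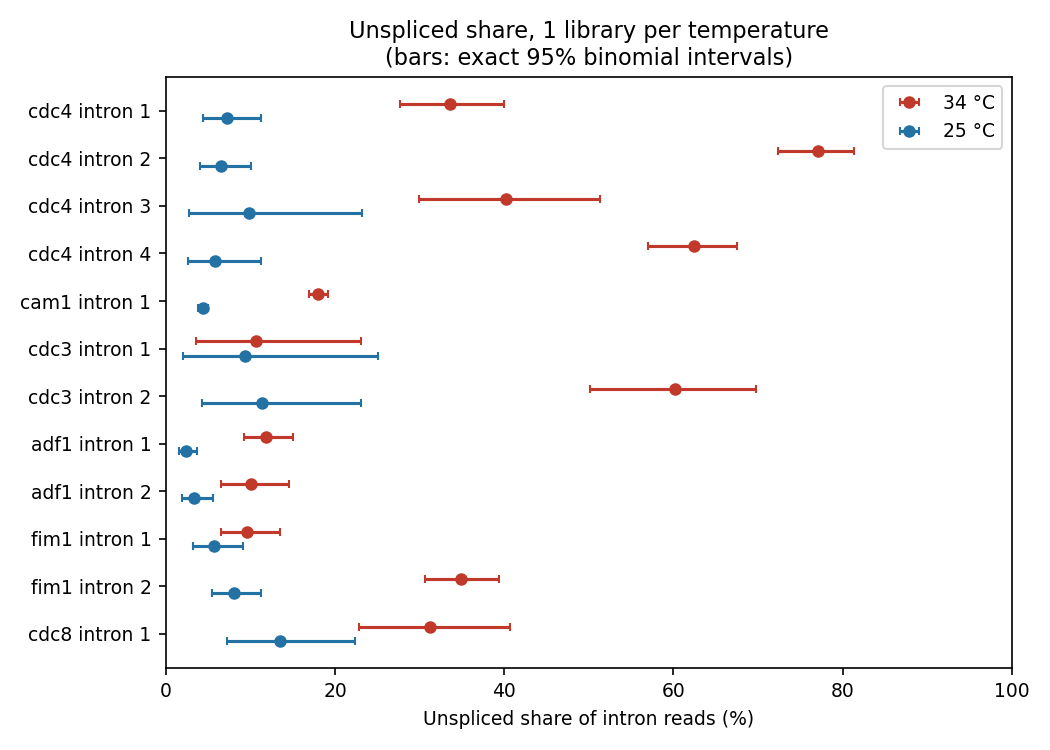
Unspliced share (percent of intron reads, horizontal axis) of the 12 introns at 34 °C (red, upper point of each row) and 25 °C (blue, lower point), 1 library each, with exact 95% binomial intervals. At 25 °C the introns lie between 2.40% and 13.5%, and at 34 °C they spread from 9.56% to 77.1%.

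Profilin binds actin monomers and feeds them to formins. Its gene cdc3 holds the intron with the fewest reads of the set, intron 1. Intron 2 (chrI:2579417-2579465, minus strand, 49 nt) had 62 unspliced of 103 reads at 34 °C and 6 of 53 at 25 °C. That gives a share of 60.2% at 34 °C (50.1 to 69.7, exact 95% binomial interval), against 11.3% (4.27 to 23.0) at 25 °C. The change of 48.9 points (Newcombe 95% interval 34.0 to 59.6) passed the test (adjusted p = 6.51e-09, Fisher's exact test). Intron 1 of the same gene (chrI:2579028-2579083, 56 nt) had 5 unspliced of 47 reads at 34 °C and 3 of 32 at 25 °C. These shares, 10.6% and 9.38%, overlapped in their intervals, and the difference of 1.26 points had an interval of -14.7 to 14.7. At this depth a change of moderate size in intron 1 was not detectable.

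Cofilin, which severs filaments and frees monomers, is encoded by adf1, and both of its introns stayed mostly spliced. Intron 1 (chrI:4825755-4825917, minus strand, 163 nt, the longest of the 12) had 60 unspliced of 506 reads at 34 °C and 22 of 915 at 25 °C. The share rose to 11.9% (9.17 to 14.9985) at 34 °C, against 2.40% (1.51 to 3.62) at 25 °C (adjusted p = 4.26e-12, Fisher's exact test). Intron 2 (chrI:4826024-4826074, 51 nt) had 24 unspliced of 239 reads at 34 °C and 14 of 418 at 25 °C, or 10.04% against 3.35%. Its rise of 6.69 points (2.81 to 11.4) was the smallest among the called introns (adjusted p = 0.00113, Fisher's exact test). In both introns the intervals of the shares at 34 °C and 25 °C did not overlap.

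Tropomyosin, which stabilises filaments, is the product of cdc8. Its single intron (chrI:4320128-4320186, minus strand, 59 nt) had 35 unspliced of 112 reads at 34 °C and 12 of 89 at 25 °C. The share was 31.3% (22.8 to 40.7) at 34 °C and 13.5% (7.17 to 22.4) at 25 °C, the highest share at 25 °C of the set. The rise of 17.8 points (6.11 to 28.4) was called (adjusted p = 0.00563, Fisher's exact test). It is also the only one of the 12 introns that an annotated exon of another gene, the noncoding RNA SPNCRNA.3944, overlaps, and reads of that RNA could have been counted as unspliced at both temperatures.

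Fimbrin crosslinks filaments through a pair of actin-binding domains. In fim1, intron 2 (chrII:3108432-3108507, minus strand, 76 nt) had 167 unspliced of 479 reads at 34 °C and 30 of 374 at 25 °C. Its share rose to 34.9% (30.6 to 39.3) at 34 °C, against 8.02% (5.48 to 11.3) at 25 °C, by 26.8 points (21.6 to 31.8; adjusted p = 6.72e-21, Fisher's exact test). Intron 1 (chrII:3106889-3106942, 54 nt) had 28 unspliced of 293 reads at 34 °C and 15 of 266 at 25 °C, or 9.56% and 5.64%. That difference of 3.92 points (-0.57 to 8.40) did not pass (adjusted p = 0.128, Fisher's exact test).

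The essential light chain Cdc4 supports the lever arm of the ring myosins, and its gene had the highest summed share of the set at 34 °C. Summed over its 4 introns, 58.9% of reads were unspliced at 34 °C and 6.83% at 25 °C. Intron 2 (chrI:5329433-5329505, plus strand, 73 nt) had 272 unspliced of 353 reads at 34 °C and 19 of 290 at 25 °C. Its share of 77.1% (72.3 to 81.3) at 34 °C, against 6.55% (3.99 to 10.04) at 25 °C, made the change the 136th largest of the 2508 introns (70.5 points, 64.7 to 75.2; adjusted p = 3.08e-79, Fisher's exact test). Intron 4 (chrI:5329806-5329877, 72 nt) had 214 unspliced of 343 reads at 34 °C and 8 of 137 at 25 °C, or 62.4% (57.03 to 67.5) against 5.84% (2.55 to 11.2; adjusted p = 2.75e-32, Fisher's exact test). In both introns most reads were unspliced at 34 °C and few at 25 °C.

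Introns 1 and 3 of cdc4 changed less. Intron 1 (chrI:5329249-5329300, 52 nt) had 80 unspliced of 238 reads at 34 °C and 18 of 249 at 25 °C, or 33.6% against 7.23%, a rise of 26.4 points (19.5 to 33.1; adjusted p = 7.76e-13, Fisher's exact test). Intron 3 (chrI:5329647-5329712, 66 nt) was shallow, with 35 unspliced of 87 reads at 34 °C and 4 of 41 at 25 °C. Its share rose by 30.5 points (14.4 to 42.5), to 40.2% at 34 °C, against 9.76% at 25 °C (adjusted p = 6.13e-04, Fisher's exact test). At 25 °C the intervals of all 4 introns of cdc4 overlapped, and at 34 °C those of introns 2 and 4 did not overlap each other or those of introns 1 and 3.

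Calmodulin binds calcium and many partners, among them the neck of the type I myosin. Its gene cam1 gave 63.0% of the members' reads at 34 °C and 59.2% at 25 °C. The single intron (chrI:1444933-1445058, plus strand, 126 nt) had 859 unspliced of 4772 reads at 34 °C and 180 of 4155 at 25 °C. The share was 18.0% (16.9 to 19.1) at 34 °C and 4.33% (3.73 to 4.996) at 25 °C, a rise of 13.7 points (12.4 to 14.9; adjusted p = 7.18e-96, Fisher's exact test). The interval is the narrowest of the 12, and 22.6% of all measured introns changed by less. The other calmodulin-like gene, cam2, and the regulatory light chain gene rlc1 give no value here, since an intron is needed for one.

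**Figure D2:**
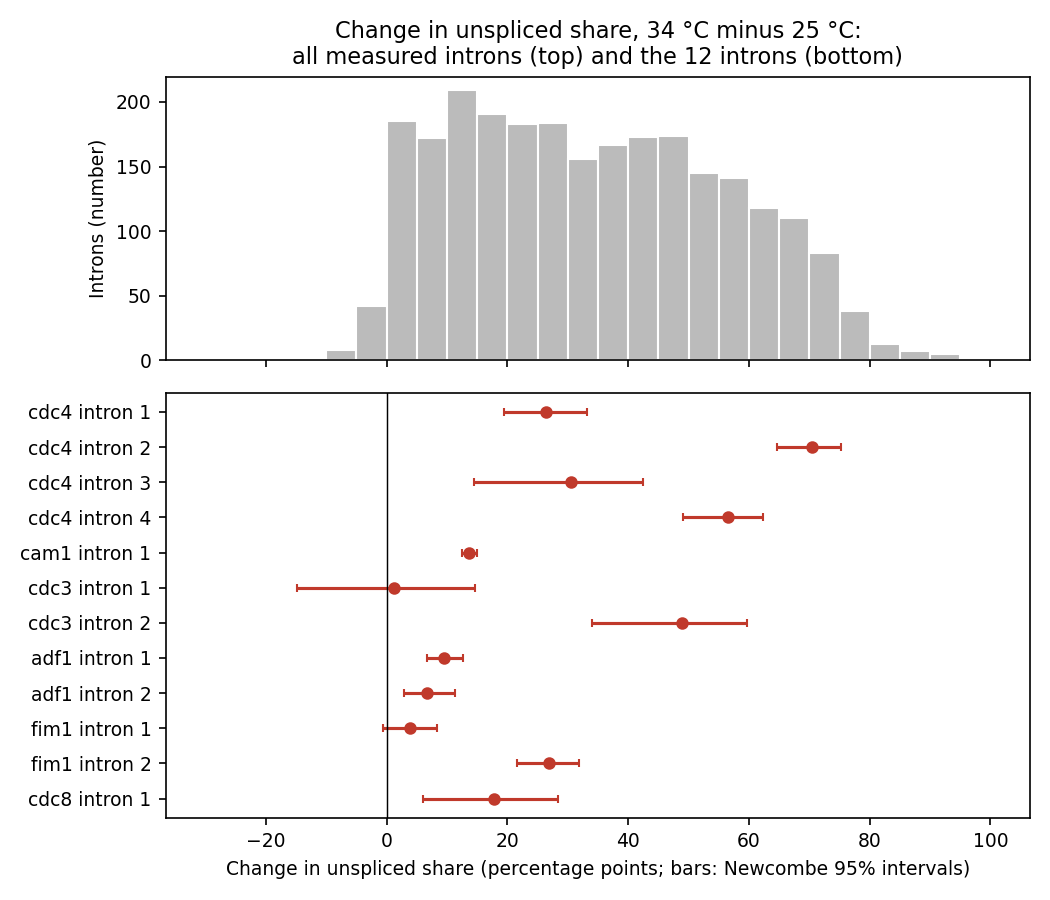
Change in unspliced share (percentage points, 34 °C minus 25 °C) over all 2508 measured introns as a histogram (top, number of introns per 5-point bin) and for each of the 12 introns with Newcombe 95% intervals (bottom). Introns 2 and 4 of cdc4 and intron 2 of cdc3 lie above the median of all introns of 32.3 points, and the intervals of cdc3 intron 1 and fim1 intron 1 include 0.

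Over all member introns 24.3% of reads were unspliced at 34 °C and 4.72% at 25 °C, and without cam1 the values were 35.1% and 5.27%. Among 698 other genes with at least 100 intron reads in each library, the nearest in both summed shares were ubp4 (24.03% at 34 °C and 4.88% at 25 °C), erv14 (23.9% and 4.35%) and ubc14 (24.7% and 4.24%). The measure was the straight distance between the pairs of shares, 0.329, 0.587 and 0.644 percentage points over 2 libraries. The shares that set this likeness are mainly those of cam1.

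Whether introns of one transcript changed alike was asked within the 4 genes that have more than 1 intron. The change of each intron was put as a log2 odds ratio of unspliced to spliced reads, 34 °C over 25 °C, with 0.5 added to each count. Of 9 pairs of member introns, 4 differed by a chi-square test of equal odds ratios (Woolf), adjusted by Benjamini-Hochberg over all 1825 pairs in the table. Over all pairs 11.4% differed. With a minimum of 50 reads in each library, 3 of 5 member pairs differed, beside 24.0% of all 801 such pairs. Pairs within cdc4 share introns and are not independent of each other. Of the 6 pairs in cdc4, 3 differed by the chi-square test: intron 1 against intron 2 by -2.87 ± 0.56 (SE; adjusted p = 9.20e-06), intron 1 against intron 4 by -1.99 ± 0.67 (adjusted p = 0.0315), and intron 2 against intron 3 by 3.05 ± 0.87 (adjusted p = 0.00723). In fim1, intron 1 against intron 2 differed by -1.80 ± 0.56 (adjusted p = 0.0172, chi-square test).

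The other pairs did not pass the test. In cdc3 the gap between the changes of introns 1 and 2 was -47.6 points, the widest of the 9 pairs, but the log2 odds ratios differed by -3.33 ± 1.24 (adjusted p = 0.0585, chi-square test). In adf1 the difference was 0.76 ± 0.61 (adjusted p = 0.481, chi-square test). Within cdc4, introns 2 and 4 differed by 0.88 ± 0.66 and introns 3 and 4 by -2.16 ± 0.95, with adjusted p of 0.439 and 0.127 by the chi-square test, and introns 1 and 3 by 0.17 ± 0.88. With unspliced reads halved, or with Holm adjustment, 1 of the 9 pairs differed, that of cdc4 introns 1 and 2, beside 5.12% and 4% of all pairs, and with the difference taken in percentage points 7 differed, beside 43.8% of all pairs. It is not known whether a read that spans neighbouring introns was counted for each of them, so the introns of a gene may share reads.

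**Figure D3:**
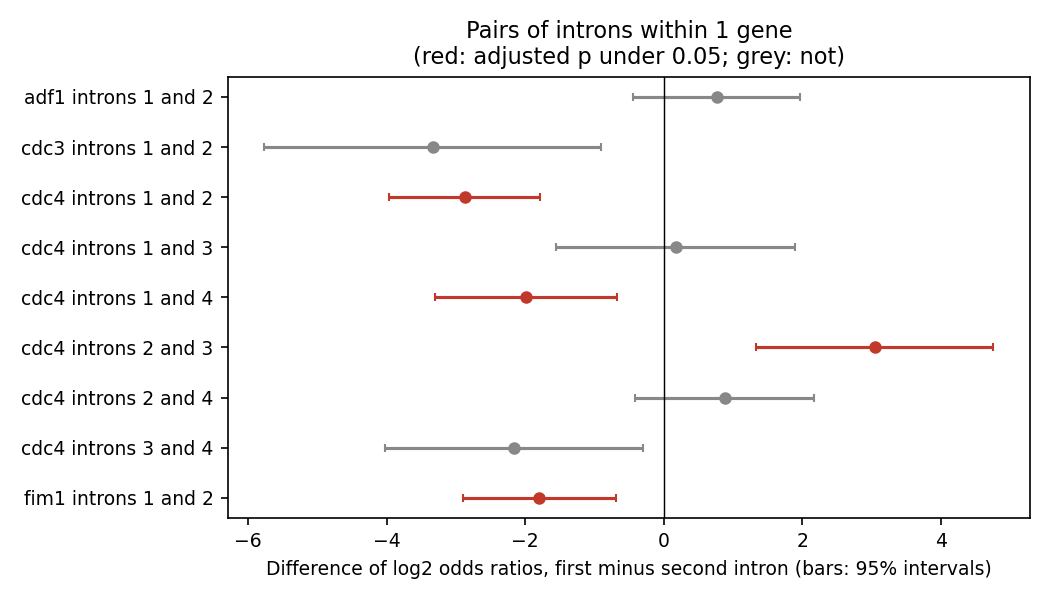
Difference of the log2 odds ratios (unspliced to spliced reads, 34 °C over 25 °C) between the first and the second named intron of each of the 9 pairs, with 95% intervals. The pairs in red, 3 of cdc4 and that of fim1, have an adjusted p under 0.05, and the pair of cdc3 has the widest interval.

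Reads per intron, scaled by the library totals, had a median log2 ratio of 34 °C over 25 °C of 0.68 over the 12 introns and of 0.47 over all measured introns. In bulk RNA fewer cells with a transcript and less of it per cell cannot be told apart. Reads per intron also need not follow the transcript, as the introns of cdc4 had log2 ratios of 0.30, 0.65, 1.45 and 1.69. Whether retention itself adds reads to the count of an intron was not tested. At least 2-fold higher at 34 °C were 3 of the 12 introns (27.4% of all measured introns), and 0 were at least 2-fold lower (9.97% of all). Those were cdc4 introns 3 and 4, with log2 ratios of 1.45 (exact 95% interval for counting error 0.90 to 2.03) and 1.69 (1.40 to 1.99), and cdc3 intron 2 with 1.33 (0.83 to 1.83). Relative to the median of all introns, only cdc4 intron 4 stayed past 2-fold, at 1.22, beside 12.5% of all introns. The introns of adf1 had the lowest ratios, -0.49 (-0.65 to -0.33) and -0.44 (-0.67 to -0.21), which are -0.95 and -0.91 relative to the median of all introns. These were the only introns of the 12 with fewer reads at 34 °C than at 25 °C under this scaling, and for spliced reads scaled by their own total they were at 0.0036 and 0.095. The sign of cdc4 intron 1, 0.30 here, turned to -0.16 relative to the median of all introns, and that of cdc4 intron 2, 0.65 here, to -0.74 for spliced reads scaled by their own total.

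Spliced reads alone moved less than unspliced ones. Scaled by library totals, 0 of the 12 introns had at least 2-fold more spliced reads at 34 °C (9.96% of all), and 1 had at least 2-fold fewer (30.4% of all). That was cdc4 intron 2, with 81 spliced reads at 34 °C and 271 at 25 °C, a log2 ratio of -1.37 (-1.75 to -1.01). In cdc4 intron 4 the spliced reads were 129 at 34 °C and 129 at 25 °C, while the unspliced reads were 214 and 8, a log2 ratio of 5.11 (4.10 to 6.34). The spliced reads of cam1 were 3913 at 34 °C and 3975 at 25 °C, a log2 ratio of 0.35 (0.28 to 0.41) after scaling. In adf1 they were 446 at 34 °C and 893 at 25 °C over intron 1 and 215 and 404 over intron 2, with log2 ratios of -0.63 and -0.54. No test was made of these ratios.

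**Figure D4:**
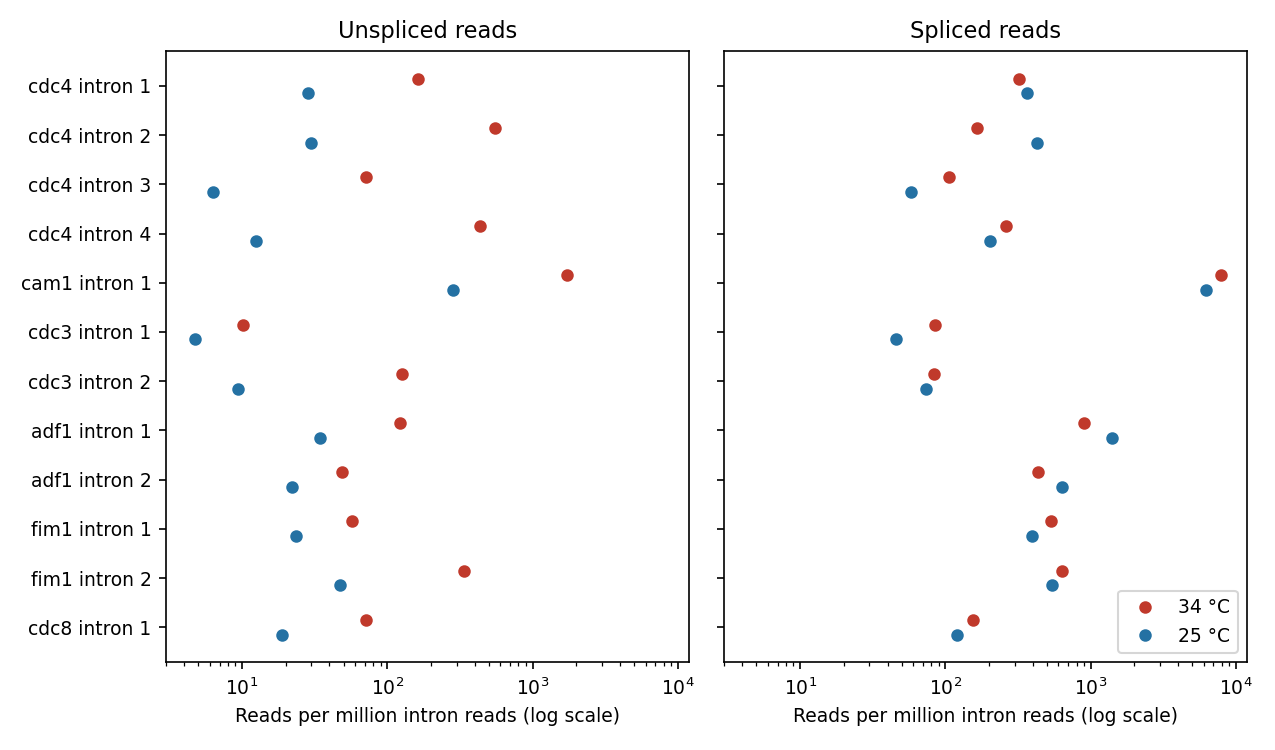
Unspliced (left) and spliced (right) reads, scaled by the intron reads of the library, on log axes, for the 12 introns at 34 °C (red, upper) and 25 °C (blue, lower). Unspliced reads lie higher at 34 °C in each of the 12 introns. In the whole library they are 39.9% of intron reads at 34 °C and 6.56% at 25 °C. In cdc3 intron 1 they are 5 and 3 reads, with an interval of the log2 ratio of -1.26 to 3.79. The log2 ratios of spliced reads run from -1.37 in cdc4 intron 2 to 0.90 in cdc3 intron 1.

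The introns were then set beside their sequence. The numbering of minus-strand introns was itself read from 5' splice site score against change. For adf1, cdc3 and fim1, and in the medians below, site and change are therefore not independent. On the plus strand, where this choice does not enter, the rank correlation within genes of score and change was -0.167 over 796 introns. The 12 introns begin with 6 different 5' splice site sequences, and introns with the same first 6 bases changed by different amounts. GTATGA opens cdc4 intron 2 (70.5 points), the cdc8 intron (17.8 points) and adf1 intron 2 (6.69 points), and the other 132 measured introns with this site had a median of 36.7 points (quartiles 22.6 and 57.8). GTAAGT, the start of 27.5% of placed introns, opens fim1 intron 2 (26.8 points), adf1 intron 1 (9.45 points) and cdc3 intron 1 (1.26 points), with a median of 22.9 points over 671 others. GTATGT opens cdc4 intron 3 (30.5 points), the cam1 intron (13.7 points) and fim1 intron 1 (3.92 points), with a median of 29.3 points over 511 others. The remaining sites occur once each: GTATGC in cdc4 intron 4 (46.6 points over 91 others), GTTTGT in cdc3 intron 2 (41.1 points over 36 others) and GTAATA in cdc4 intron 1 (58.1 points over 14 others). Of these 3 sites, the member intron changed by more than the median of the others with GTATGC and GTTTGT and by less with GTAATA.

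A branch site is the place where the intron's own adenosine attacks the 5' splice site. The last 45 bases of each intron were searched on the transcribed strand, not on the other, for 4 words of this site, and the match nearest the exon was taken. Of 4052 placed introns of at least 45 nt, 47.3% hold the word CTAAC and 25.4% hold CTAAT. The word CTGAC is in 6.07% and CTGAT in 3.48%, and 77.0% hold at least 1 of the 4. Of the 12 member introns 8 do, 3 with CTAAC (cdc4 intron 4, cdc3 intron 2 and fim1 intron 1) and 5 with CTAAT (cdc4 introns 2 and 3, adf1 intron 1, fim1 intron 2 and the cdc8 intron). The introns with a match ran from 3.92 to 70.5 points and those without from 1.26 to 26.4 points. From the branch adenosine to the end of the intron there were 7 bases in cdc4 intron 2 and 18 in the cdc8 intron, against a median of 11 over placed introns.

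The region of the pyrimidine tract that U2AF binds was described by a fixed window of 14 bases, ending 3 bases before the exon. The window was not placed by the branch site. It leaves out the branch site match of the cdc8 intron and takes in part of that of adf1 intron 1. It takes in the whole match in cdc4 introns 2, 3 and 4, cdc3 intron 2 and fim1 introns 1 and 2. In all of these but the cdc8 intron the count is not that of a tract alone. Over placed introns the median from branch adenosine to intron end is 11 bases, so the background counts such bases too. The window holds 11 uridines in adf1 intron 1 and 10 in the cdc8 intron, the most of the set. In cdc4 intron 1 and cdc3 intron 1 it holds 3, the fewest, and the median over placed introns is 5. The introns of 11 and 10 uridines changed by 9.45 and 17.8 points, and those of 3 by 26.4 and 1.26 points. The 2 introns that changed most, cdc4 introns 2 and 4, have 4 and 6. These are descriptions of single introns.

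All 12 introns lie between coding exons. In cam1, as in adf1 (intron 2), the intron follows the start codon itself, after 3 coding bases. It follows 13 coding bases in cdc3 (intron 2) and 18 in cdc8. Reading the reference through a single kept intron, with the others removed, gives a stop codon inside the intron in 11 of the 12. For adf1 intron 2 the stop comes after 2 codons of a protein of 137 residues, for cdc8 after 7 of 161, for cdc3 intron 2 after 9 of 127 and for cam1 after 15 of 150. For the introns of cdc4 it comes after 23, 71, 105 and 148 codons in transcript order, where the protein has 141 residues, so the frame through intron 4 is longer than the protein. In fim1 intron 2 the reading frame passes through the intron and stops in the next exon after 115 codons of 614. In fim1 intron 1 it stops after 583, and in cdc3 intron 1 after 124 of 127. These frames were computed from the reference and no protein was measured.

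**Figure D5:**
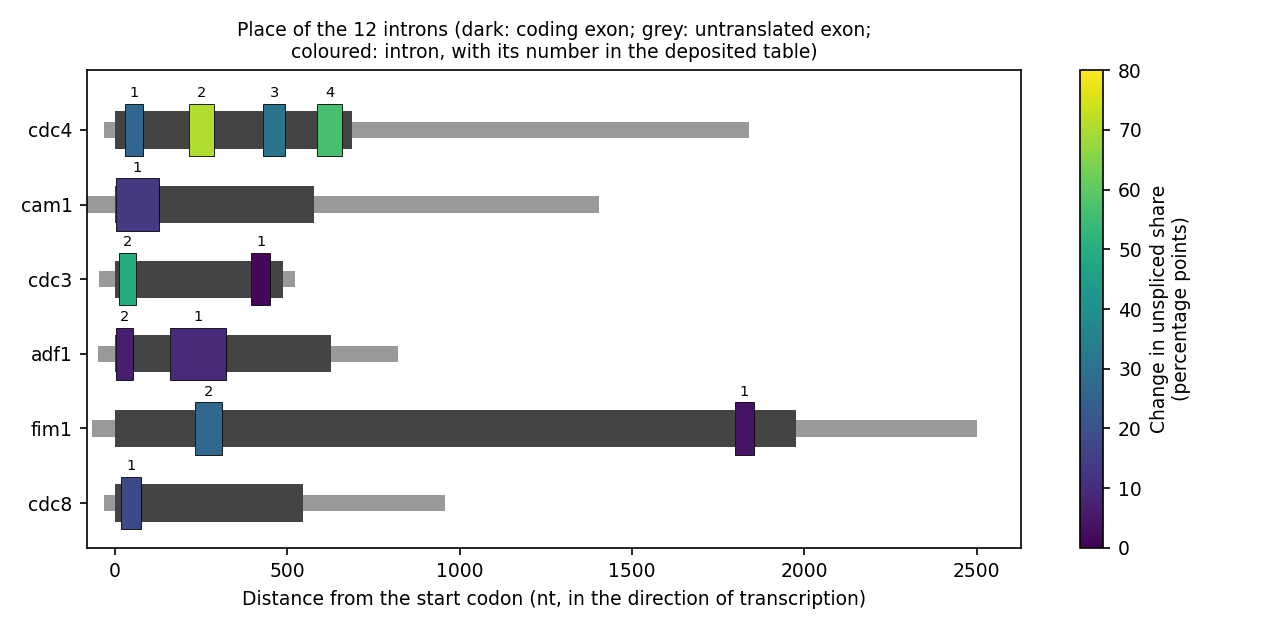
Exons and introns of the 6 genes by distance from the start codon (nt, in the direction of transcription), with coding exons dark, untranslated exons grey and introns coloured by the change in unspliced share (percentage points). The first introns of cam1, adf1, cdc3 and cdc8 lie at the start of the coding sequence, with changes from 6.69 to 48.9 points, and the brightest introns are 2 and 4 of cdc4.

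The other genes of the actin and calcium systems were taken from 3 lists of 64 genes, of which 40 are in the table and 24 had 49 introns with enough reads. The share was called higher in 37 of the 49 introns and lower in 0, beside the 82.6% of all introns called higher. The median change was 29.98 points. Named for its direction, acp1 intron 2 had 1 unspliced of 52 reads at 34 °C (1.92%) and 3 of 50 at 25 °C (6%). Its change had an interval of -14.4 to 5.02 points. The shares of this intron and of arc4 intron 1 were lower at 34 °C without a call. Of 33 introns of 16 actin filament and patch genes, 22 were called higher, with a median of 23.5 points. Of 13 introns of 5 calcium sensor and calmodulin target genes, all 13 were called higher, with a median of 37.2 points. Introns of 1 gene are not separate cases. Of 3 introns of myosin and contractile ring genes, 2 were called higher. The lists are described by these counts, without a test of a list.

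The subunits of the Arp2/3 complex, which branches actin filaments, had introns with large and with small changes. Intron 1 of arc5 rose to 62.1% of 169 reads at 34 °C, against 7.45% of 510 reads at 25 °C, whereas intron 2 rose to 15.02% of 233 reads, against 2.48% of 483 reads. In arc4, intron 3 rose to 15.7% at 34 °C, against 1.67% at 25 °C (adjusted p = 2.79e-07, Fisher's exact test). Introns 1 and 2 of arc4 had 6.05% and 10.3% at 34 °C, against 6.56% and 6.76% at 25 °C, and did not pass. The intron of arc1 rose to 43.1% at 34 °C, against 4.80% at 25 °C, and that of arc2 had 25.3% at 34 °C and 13.3% at 25 °C without passing (adjusted p = 0.142, Fisher's exact test). An annotated exon of another gene overlaps the introns named for arc1, arc4 and cdc31, intron 2 of arc5 and introns 1 and 2 of twf1.

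Twinfilin (twf1) and the cyclase-associated protein (cap1) act with cofilin on actin monomers. Introns 2 and 6 of twf1 had 2.82% and 15.2% at 34 °C, against 0% and 6.52% at 25 °C, and neither passed. Intron 1 of twf1, named after its values were seen, rose to 79.4% of 34 reads at 34 °C, against 4.76% of 21 reads at 25 °C (74.6 points, 50.5 to 85.6; adjusted p = 7.68e-08, Fisher's exact test), the largest change in the 3 lists. The 0 of 101 reads at 25 °C in intron 2 allows a share of up to 2.97%. The intron of cap1 had 19.2% at 34 °C and 8.51% at 25 °C (adjusted p = 0.143, Fisher's exact test). Among relatives of calmodulin, intron 1 of ncs1, for a neuronal calcium sensor family protein, rose to 80.5% of 298 reads at 34 °C, against 9.69% of 351 reads at 25 °C. The intron of cdc31, the centrin gene, rose to 65.3% of 176 reads at 34 °C, against 2.99% of 469 reads at 25 °C. Both lay above the intron of cam1 in share at 34 °C, 18.0%, and also above the median of the calcium sensor and calmodulin target list, 42.6%.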

How the data were processed

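Per the file headers, the authors deposited whole-number counts of spliced and unspliced reads per intron for each library, unscaled, and a spliced-to-unspliced ratio, made with 0 replaced by 1, which was not used. A second deposited table holds the 1340 introns with sums over 50 in each library and the same counts. The submitters' processing notes name TopHat and SAMtools. For the build, annotation, counter, strand setting and what makes a read unspliced, the entry is: not given in the sources used here. Under a definition by any read in the intron, long introns would gather more unspliced reads.

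A minimum of 20 reads in each library left out 2866 of 5374 introns. Intervals are exact Clopper-Pearson 95% ones for shares and Newcombe ones for changes. Unspliced and spliced counts were compared by two-sided Fisher's exact tests (scipy 1.17.1, statsmodels 0.14.6) with Benjamini-Hochberg adjustment. The floor for a count of 0 is 3 reads of the total. Introns were placed on ASM294v3 by number in 2418 genes; in 123 the number differed and 7 had no transcript. The 5' splice site score sums log2 frequency ratios of intron bases 3 to 6. The steps were tested on simulated counts. Members, lists and tests were chosen with earlier results of these data known. Every member intron is named. Of the pathway lists, the 6 deepest called and 6 deepest uncalled introns are named. The introns acp1 intron 2 and twf1 intron 1 were added after their values were seen. The 3 genes with the nearest shares are named too.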

Additional observations from a re-analysis of the deposited data

How the results depend on the processing

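The read minima, the chi-square test and Holm adjustment cannot alter the change of an intron. Halving the unspliced reads of both libraries alike could hardly turn its sign. That the unspliced share kept its direction in each of the 12 introns is therefore no check of it. The calls of cdc4 intron 3, adf1 intron 2 and the cdc8 intron were lost with Holm adjustment (adjusted p of 0.354, 0.639 and 1), which left 7 of 12, beside 57.1% of all introns. Over the other alternatives 9 or 10 introns were called, while the share called of all introns ran from 55.9% with no minimum to 87.8% in the smaller table. With the deepest intron per gene only 6 introns enter, and all 6 were called (82.1% of all). The median change over the member introns ran from 14.1 points with unspliced reads halved to 26.4 points over introns free of overlapping exons. The medians over all introns under these settings were 19.7 and 32.6 points. With a minimum of 50 reads it was 22.1 points over 10 member introns, against 28.4 points over all. As a log2 odds ratio the median of the 12 was 2.46, against 3.34 over all introns. For the actin and calcium lists 20 of 24 introns were called with a minimum of 50 reads (87.7% of all), 11 of 17 without overlapping exons (84.6% of all), 18 of 24 with the deepest intron per gene (82.1% of all) and 19 of 22 in the smaller table (87.8% of all), where fewer introns enter, and the median change was 18.9 points with unspliced reads halved. Of 9 pairs, 7 differed in percentage points (43.8% of all pairs), 1 with Holm adjustment (4% of all) and 1 with unspliced reads halved (5.12% of all). With a minimum of 50 reads 5 pairs enter, and 3 differed (24.0% of all). The difference of cdc4 introns 1 and 3 turned to -4.09 points in percentage points, with no call on either scale. The median log2 ratio of reads was 0.31 without scaling, 0.21 relative to the median of all introns and 0.92 for spliced reads scaled by their own total, and under the last the ratios of the adf1 introns, -0.49 and -0.44 as reported, were 0.0036 and 0.095 and that of cdc4 intron 2, 0.65 as reported, was -0.74. The ratio of cdc4 intron 1, 0.30 as reported, was -0.065 without scaling and -0.16 relative to the median of all introns. No paired analysis was possible because each temperature has 1 library, and no library could be left out. Depth limits cdc3 intron 1 and cdc4 intron 3, which have fewer than 50 reads in a library.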
